A study of Mus musculus with 6 samples.

Results

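Ubiquitin ligases, deubiquitinases and proteasome genes were examined in hippocampal RNA from mice given corticosterone (CORT, the main glucocorticoid stress hormone of rodents) and from mice given vehicle. Members were chosen by gene symbol alone: every row of the deposited table whose name begins with Usp, Ube, Trim, Rnf or Cul and a digit, with Fbx, Klhl, Herc, March or Otu, or with a proteasome symbol from Psma to Psmg and a digit. This gave 42 of the 2404 genes in the table. The CORT group was 3 adult male C57BL/6 mice, 7 to 8 weeks old by the study's methods, injected subcutaneously with 40 mg/kg CORT daily for 36 days, and the vehicle group was 3 mice of the same kind injected with the solvent, a mixture of DMSO, Tween-80 and water. Cortisone is the agent named in the treatment label, while the study's methods and the sample titles give corticosterone or CORT. The table heads its control columns WT, and these were read as the vehicle mice, since the series has no other control group. All values are TPM (transcript abundance, corrected for the length of the gene and the size of the library) as computed by the authors. The number of reads behind a TPM cannot be read back from it, so depth is unknown.

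Ubiquitin is a small protein that cells attach to other proteins to mark them for destruction or to change what they do. An E1 enzyme activates it, an E2 enzyme carries it, and an E3 ligase chooses the substrate. Cullins are scaffolds of large E3 ligases, and F-box and KLHL proteins are the exchangeable parts that bind the substrate. RNF, MARCH and most TRIM proteins carry the RING type of catalytic domain themselves. USP and OTU enzymes take ubiquitin off again, and the proteasome is the barrel-shaped protease that degrades the marked proteins. In neurons this system turns over synaptic proteins and guards against misfolded ones. In skeletal muscle, glucocorticoids are known to raise the ligases Fbxo32 and Trim63, neither of which was among the listed genes.

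Every row of the table has an authors' p under 0.05, so each member was listed because it differed between these same libraries. A low p below is therefore no independent evidence of a change. Testing used limma on values of log2(TPM + 1) for the 2241 listed genes that reached 1 TPM in 3 or more libraries, with Benjamini-Hochberg adjustment across them. Log2 fold changes are on the log2(TPM + 1) scale, CORT over vehicle, a scale that makes changes of weakly expressed genes look smaller. All 42 members passed the filter. RefSeq (GRCm38.p6) holds 451 protein-coding genes whose symbols fit the same patterns. None of its 19 genes of the 20S proteasome core and none of its 5 HERC genes was listed, and of its 21 genes of the 19S particle 1 was listed. A gene outside the table was not analysed here.

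In the CORT group 13 of the 42 members were higher, 5 were lower and 24 stayed above the limma threshold of an adjusted p of 0.05. The genes that rose were 6 of the 8 listed RING ligases of the RNF family, together with both E2 entries, Klhl36, Fbxo10, Trim2, Usp54 and the proteasome activator gene Psme4. The genes lower in CORT were 4 TRIM genes and the F-box gene Fbxo2. Across the whole table, 50.6% of tested genes passed, 25.8% higher and 24.7% lower. Among the members the shares were 42.9% in either direction, 31.0% higher and 11.9% lower, so passing was not more frequent among the members than in the table. The median log2 fold change was 0.20 over the members and 0.05 over all tested genes, and a fold change above 0 was seen in 30 of 42 members (71.4%) and in 50.4% of all tested genes. The changes were small. The median absolute log2 fold change was 0.23 in the members and 0.26 in all tested genes, and among the 18 called members the change reached 1.5-fold in 3 by log2(TPM + 1) and in 5 by the ratio of mean TPM.

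**Figure D1:**
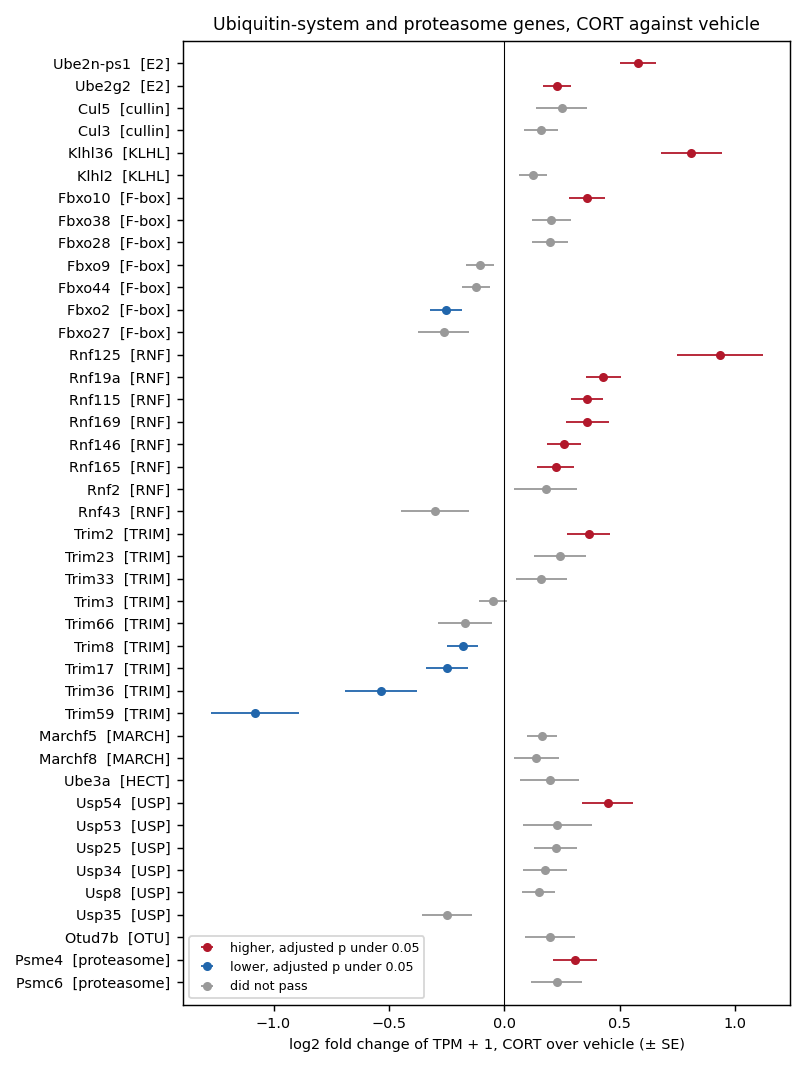
Log2 fold change of TPM + 1, CORT over vehicle, for the 42 members grouped by family, with the standard error from limma as bars. Rnf125 (0.94), Klhl36 (0.81) and Ube2n-ps1 (0.58) lie farthest to the right, and Trim59 (-1.08) and Trim36 (-0.53) farthest to the left.

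Fits without single libraries gave 12, 14 and 12 members changed without CORT replicates 1, 2 and 3, where 31.9%, 28.7% and 32% of the table passed. Without vehicle replicates 1, 2 and 3 they gave 12, 16 and 20 members, where 27.7%, 37.7% and 53.0% of the table passed. The number lower was 2, 4 and 1 without CORT replicates 1, 2 and 3, where 15.6%, 13.5% and 14.9% of the table were lower. It was 2, 4 and 2 without vehicle replicates 1, 2 and 3, where 12.6%, 20.7% and 20.4% of the table were lower. Of the 18 calls 9 passed in every such fit, those of Rnf125, Klhl36, Ube2n-ps1, Usp54, Rnf19a, Trim2, Rnf115, Fbxo10 and Trim59. The share of the table's calls that did so was not counted. The summed TPM of the members was 1902.3, 1890.5 and 1829.1 in the CORT libraries and 1755, 1714.6 and 1784.8 in the vehicle libraries. All listed genes together held 31.49%, 30.83% and 30.12% of TPM in the CORT libraries and 29.27%, 29.19% and 29.94% in the vehicle libraries.

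The largest rise among the members was that of Rnf125, a RING ligase known in human cells to mark the viral RNA sensor RIG-I for degradation. Its TPM was 3.53, 2.91 and 1.89 in the CORT libraries and 0.70, 1.12 and 1.03 in the vehicle libraries. Every CORT library lay above every vehicle library, with CORT library 3 the lowest of its group. The mean TPM was 2.78 ± 0.83 in the CORT group and 0.95 ± 0.22 in the vehicle group (SD, n = 3 each), and the log2 fold change was 0.94 (limma, SE 0.19, adjusted p of 0.0059). Rnf125 was the least abundant member in the vehicle group, and an annotated gene, Gm2996, is 98.5% identical to 38.2% of its transcript, so part of its reads could be assigned to either.

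Rnf19a encodes Dorfin, a ligase of the RING-between-RING type that binds misfolded proteins. It had a TPM of 24.19, 24.43 and 23.13 in the CORT libraries and 17.06, 17.28 and 18.14 in the vehicle libraries. The spread within each group was far smaller than the gap between them, and the log2 fold change was 0.43 (limma, SE 0.08, adjusted p of 0.0035). After a spline of transcript GC content had been removed from each library (the GC correction), the log2 fold change was 0.27 and still passed. A second annotated gene, 1700001J11Rik, is 90.1% identical to 57.5% of the Rnf19a transcript. Rnf115, a RING ligase linked to receptor trafficking, had a TPM of 53.94, 54.74 and 53.70 in the CORT libraries and 39.14, 42.56 and 44.26 in the vehicle libraries. The CORT libraries lay close together above all vehicle libraries, and the log2 fold change was 0.36 (limma, SE 0.07, adjusted p of 0.0053). With the GC correction it was 0.20 and still passed. Rnf169, which reads ubiquitin marks on chromatin at DNA breaks, had a TPM of 11.67, 11.41 and 12.21 in the CORT libraries and 9.07, 8.36 and 9.41 in the vehicle libraries. Its log2 fold change was 0.36 (SE 0.09), with an adjusted p from limma of 0.016 that became 0.0526 without CORT replicate 3.

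The other RNF genes that passed were Rnf146, a ligase that recognises poly-ADP-ribosylated proteins, and Rnf165, known in mice for its part in motor axon growth. Rnf146 had a TPM of 65.36, 57.57 and 56.15 in the CORT libraries and 49.38, 50.15 and 49.48 in the vehicle libraries. Rnf165 had a TPM of 32.92, 30.90 and 30.14 in the CORT libraries and 26.12, 25.18 and 28.78 in the vehicle libraries. In both genes all CORT libraries lay above the vehicle libraries, and the log2 fold changes were 0.26 and 0.22. The call of Rnf146 was lost without CORT replicate 1 or vehicle replicate 1 and that of Rnf165 in 5 of the 6 fits without single libraries, with limma adjusted p-values as high as 0.0752 and 0.13. With the GC correction the log2 fold change of Rnf146 was 0.07 and did not pass. Exons of Rnf146 share 3129 bases with Echdc1 on the opposite strand, and the sources used here do not say whether counting used strand, so its value is uncertain. Rnf2, the catalytic subunit of the Polycomb complex that ubiquitinates histone H2A, did not pass and had a TPM of 35.68, 30.39 and 23.58 in the CORT libraries and 27.98, 26.00 and 23.93 in the vehicle libraries. The groups overlapped because CORT library 3 lay below all 3 vehicle libraries. Rnf43, a membrane ligase that removes Wnt receptors, did not pass, at a log2 change of -0.30 (limma adjusted p of 0.097).

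TRIM genes held 4 of the 5 members that were lower, where 24.7% of all tested genes were lower. Trim59, which encodes a membrane-anchored TRIM ligase, had a TPM of 2.70, 2.87 and 2.18 in the CORT libraries and 9.03, 4.80 and 6.43 in the vehicle libraries. Every CORT library was below every vehicle library, and the vehicle libraries varied more among themselves than the CORT libraries did. The mean TPM was 2.58 ± 0.36 in the CORT group and 6.75 ± 2.13 in the vehicle group (SD, n = 3 each), with a log2 change of -1.08 (limma, SE 0.19, adjusted p of 0.0034). The annotated genes Gm15381 and Gm4921 are 94.1% and 93.6% identical to parts of its transcript. Trim36, a ligase associated with microtubules, had a TPM of 1.58, 1.82 and 1.37 in the CORT libraries and 2.57, 2.24 and 3.53 in the vehicle libraries. The groups did not overlap, and the log2 fold change was -0.53 (limma, SE 0.16, adjusted p of 0.025). That call was lost in 4 of the 6 fits without single libraries, with a limma adjusted p as high as 0.0687.

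Trim8 and Trim17 were lower by smaller amounts. Trim8, a regulator of cytokine signalling, had a TPM of 37.89, 40.54 and 37.82 in the CORT libraries and 44.61, 44.03 and 43.33 in the vehicle libraries. The groups did not overlap, but the log2 fold change of -0.18 (limma, SE 0.07, adjusted p of 0.049) passed in none of the fits without single libraries. With the GC correction it was -0.04 and did not pass. Trim17, known for a role in neuronal apoptosis, had a TPM of 48.74, 60.18 and 48.40 in the CORT libraries and 64.58, 63.11 and 59.00 in the vehicle libraries. Its groups overlapped, since the second CORT library lay above the lowest vehicle library, and its call (log2 fold change -0.25, limma adjusted p of 0.048) was lost in 5 of those 6 fits. It was also lost with the GC correction, although the log2 fold change was again -0.25. Exons of Trim17 share 708 bases with Hist3h2a on the same strand.

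Trim2 moved the other way. It is a neuronal ligase that acts on the light neurofilament subunit, and it had a TPM of 113.22, 114.29 and 107.99 in the CORT libraries and 74.30, 89.67 and 97.24 in the vehicle libraries. The CORT libraries lay above all vehicle libraries, with the first vehicle library the lowest by a wide margin, and the log2 fold change was 0.37 (limma, SE 0.09, adjusted p of 0.015). With the GC correction it was 0.21 and did not pass (limma adjusted p of 0.0566). Trim3, its closest relative in the family and also a neuronal ligase, did not pass, at a log2 change of -0.05 (limma adjusted p of 0.46). Whether the difference in fold change between Trim2 and Trim3 exceeds its error was not tested. Trim23, Trim33 and Trim66 did not pass either, with log2 fold changes of 0.24, 0.16 and -0.17.

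**Figure D2:**
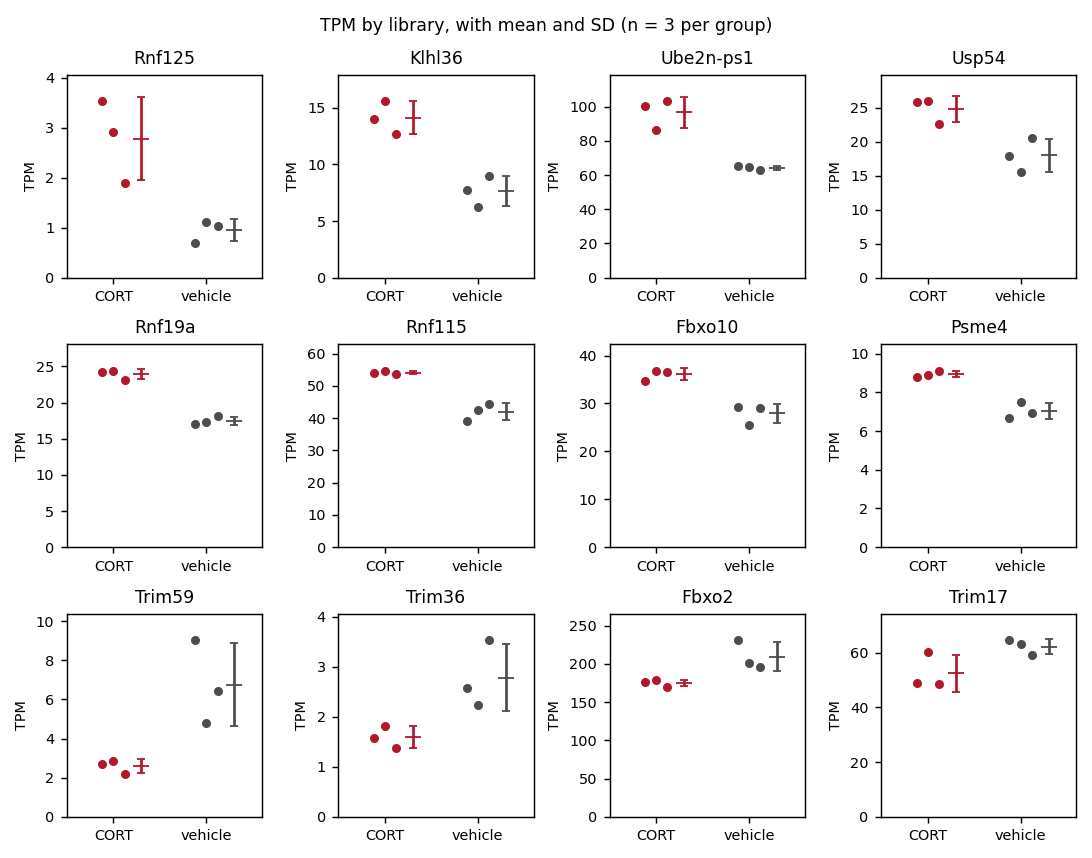
TPM of 12 members in each library (points) with the mean and SD of each group (n = 3), CORT at the left and vehicle at the right of each panel, on axes that start at 0. In 11 of the 12 panels the groups do not overlap, and Trim17 is the exception. All 12 are called members, of which 17 of 18 have groups that do not overlap, against 69.8% of all tested genes.

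Among the substrate receptors of cullin ligases, Klhl36 rose most. It is a member of the BTB-Kelch family, whose proteins carry substrates to Cul3. Klhl36 had a TPM of 14.04, 15.59 and 12.72 in the CORT libraries and 7.77, 6.27 and 8.95 in the vehicle libraries. The lowest CORT library was well above the highest vehicle library. The mean TPM was 14.1 ± 1.44 in the CORT group and 7.66 ± 1.34 in the vehicle group (SD, n = 3 each), and the log2 fold change was 0.81 (limma, SE 0.13, adjusted p of 0.0024). Klhl2, an actin-binding Kelch protein that targets WNK kinases, did not pass, with a TPM of 209.99, 214.44 and 199.40 in the CORT libraries and 177.80, 192.26 and 202.39 in the vehicle libraries. The lowest CORT library was below the highest vehicle library there. The scaffold Cul3 had a TPM of 63.72, 72.19 and 65.45 in the CORT libraries and 61.73, 56.40 and 61.87 in the vehicle libraries. Its groups did not overlap, but its log2 fold change of 0.16 did not pass (limma adjusted p of 0.082), nor did that of Cul5 (0.25, limma adjusted p of 0.073). Cul5, the scaffold that works with SOCS-box proteins, had 17.19, 16.19 and 15.00 TPM in the CORT libraries and 11.62, 13.76 and 15.00 TPM in the vehicle libraries, with the lowest CORT value equal to the highest vehicle value.

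F-box proteins were split, with 1 member higher, 1 lower and 5 that did not pass. Over all tested genes 25.8% were higher and 24.7% lower. Fbxo10, known in human cells to target the survival protein BCL2, had a TPM of 34.60, 36.86 and 36.66 in the CORT libraries and 29.16, 25.60 and 28.98 in the vehicle libraries. The groups were clearly apart, and the log2 fold change was 0.36 (limma, SE 0.08, adjusted p of 0.0093). Fbxo2, Fbxo27 and Fbxo44 belong to the same F-box subfamily, and some of its members recognise sugar chains on misfolded glycoproteins. In all 3 genes every CORT library was below every vehicle library. Among all tested genes 34.4% had that order and 35.4% the opposite one, and these 3 were grouped after their values had been seen. Fbxo2, a brain-enriched receptor and the most abundant member in the vehicle group, had a TPM of 176.43, 178.70 and 170.17 in the CORT libraries and 231.29, 201.01 and 195.90 in the vehicle libraries. Its log2 fold change of -0.25 (SE 0.07) passed with an adjusted p of 0.019 from limma, which became 0.0514 without CORT replicate 3. With the GC correction it was -0.07 and did not pass.

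Fbxo27 had a TPM of 12.79, 11.16 and 10.85 in the CORT libraries and 13.34, 13.05 and 16.03 in the vehicle libraries. Fbxo44 had a TPM of 162.84, 162.00 and 164.71 in the CORT libraries and 190.05, 165.55 and 178.17 in the vehicle libraries. Its log2 fold change of -0.12 did not pass, and neither did that of Fbxo27 (-0.26), with limma adjusted p-values of 0.096 and 0.065. RefSeq places Fbxo2 and Fbxo44 side by side on opposite strands, with their nearest starts 574 bases apart in GRCm38.p6. Fbxo9, Fbxo28 and Fbxo38 did not pass, with log2 fold changes of -0.10, 0.20 and 0.20.

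Both E2 entries were higher, as were 25.8% of all tested genes. Ube2g2, an E2 enzyme of the pathway that removes misfolded proteins from the endoplasmic reticulum, had a TPM of 94.60, 101.80 and 102.92 in the CORT libraries and 82.41, 84.96 and 87.36 in the vehicle libraries. The groups did not overlap, and the log2 fold change was 0.23 (limma, SE 0.06, adjusted p of 0.017). The call was lost without CORT replicate 2 or CORT replicate 3, with a limma adjusted p as high as 0.0614. Exons of Ube2g2 share 166 bases with Gm49325 on the same strand. The other entry, Ube2n-ps1, is annotated as a processed pseudogene of Ube2n, the E2 enzyme that builds the K63-linked chains used in signalling. It had a TPM of 100.56, 86.10 and 103.26 in the CORT libraries and 65.04, 64.60 and 62.69 in the vehicle libraries. The vehicle libraries were nearly equal and all CORT libraries lay well above them, with a log2 change of 0.58 (limma, SE 0.08, adjusted p of 9.5e-04), the smallest adjusted p among the members.

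In GENCODE M21 the whole Ube2n-ps1 transcript of 459 bases is 100% identical to Ube2n, and all 385 windows of 75 bases taken from it occur unchanged in Ube2n transcripts. The first 90 bases are shown because both genes share every one of them. The capitals mark the start codon.
Ube2n-ps1: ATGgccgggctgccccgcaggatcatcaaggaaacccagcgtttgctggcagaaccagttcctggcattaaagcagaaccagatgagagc
A read from this stretch cannot be told from one of Ube2n, so the value listed for Ube2n-ps1 may hold reads of either gene. Other annotated genes are close copies as well. Gm5943 and Ube2nl are 97.8% and 96.9% identical to 100% and 99.3% of the Ube2n-ps1 transcript, so some reads could be assigned to these too. Ube2n itself was not among the listed genes.

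The HECT ligase gene Ube3a, whose loss in the human brain causes Angelman syndrome, did not pass. It had a TPM of 15.86, 17.48 and 17.68 in the CORT libraries and 11.95, 15.48 and 17.12 in the vehicle libraries, and the groups overlapped. Its exons share 1803 bases with the antisense transcript Snhg14. The membrane ligases Marchf5, which sits in the outer mitochondrial membrane, and Marchf8, which removes receptors from the cell surface, did not pass either. Marchf5 had a TPM of 68.25, 64.88 and 67.79 in the CORT libraries and 56.20, 62.07 and 60.69 in the vehicle libraries, with no overlap (log2 fold change 0.17, limma adjusted p of 0.058). The annotated genes Gm8641 and Gm7684 are 96.4% and 95.5% identical to parts of the Marchf5 transcript. Marchf8 had overlapping groups, with 26.57, 33.25 and 29.82 TPM in the CORT libraries and 26.77, 25.00 and 29.13 TPM in the vehicle libraries.

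Of 7 listed deubiquitinases, 1 was higher and 6 did not pass, where 25.8% of all tested genes were higher and 24.7% lower. Exons of Usp54 share 580 bases with the antisense gene 1810062O18Rik. Usp54 had a TPM of 25.93, 26.01 and 22.56 in the CORT libraries and 17.99, 15.54 and 20.50 in the vehicle libraries. The groups did not overlap although the lowest CORT and the highest vehicle library were close, and the log2 fold change was 0.45 (limma, SE 0.11, adjusted p of 0.014). Its closest relative Usp53, known in mice for a role in hearing, did not pass, at a log2 fold change of 0.23, and the difference between the 2 genes was not tested. Usp25 had 14.10, 13.85 and 13.02 TPM in the CORT libraries and 11.44, 10.74 and 12.54 TPM in the vehicle libraries, without overlap (log2 fold change 0.22, limma adjusted p of 0.066). Otud7b, which cuts K11-linked chains and restrains NF-kB signalling, had 15.38, 15.64 and 15.76 TPM in the CORT libraries and 13.75, 11.51 and 15.36 TPM in the vehicle libraries (log2 fold change 0.20, limma adjusted p of 0.12). Usp8, which acts on receptors in endosomes, Usp34 and Usp35 had log2 fold changes of 0.15, 0.18 and -0.25, none of which passed. Exons of Usp34 share 2137 bases with Ahsa2 on the opposite strand. Across all families 9 of the 42 members share exon bases with another annotated gene.

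Of the proteasome genes, Psme4 and Psmc6 were listed. Psme4 encodes PA200, a cap that activates the core particle without ATP. It had a TPM of 8.80, 8.90 and 9.12 in the CORT libraries and 6.66, 7.50 and 6.94 in the vehicle libraries, so that the CORT libraries were nearly equal and all above the vehicle libraries. The log2 fold change was 0.31 (limma, SE 0.10, adjusted p of 0.029), and the call was lost in 4 of the 6 fits without single libraries, with a limma adjusted p as high as 0.0801. With the GC correction it was 0.13 and did not pass. Psmc6, an ATPase subunit of the 19S particle that unfolds substrates, had a TPM of 49.24, 41.21 and 36.01 in the CORT libraries and 33.45, 36.97 and 36.44 in the vehicle libraries. It did not pass, and CORT library 3 lay within the range of the vehicle libraries. The immunoproteasome subunits and their activator, a list of 7 genes including Psmb8 and Psme1, had no listed gene.

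**Figure D3:**
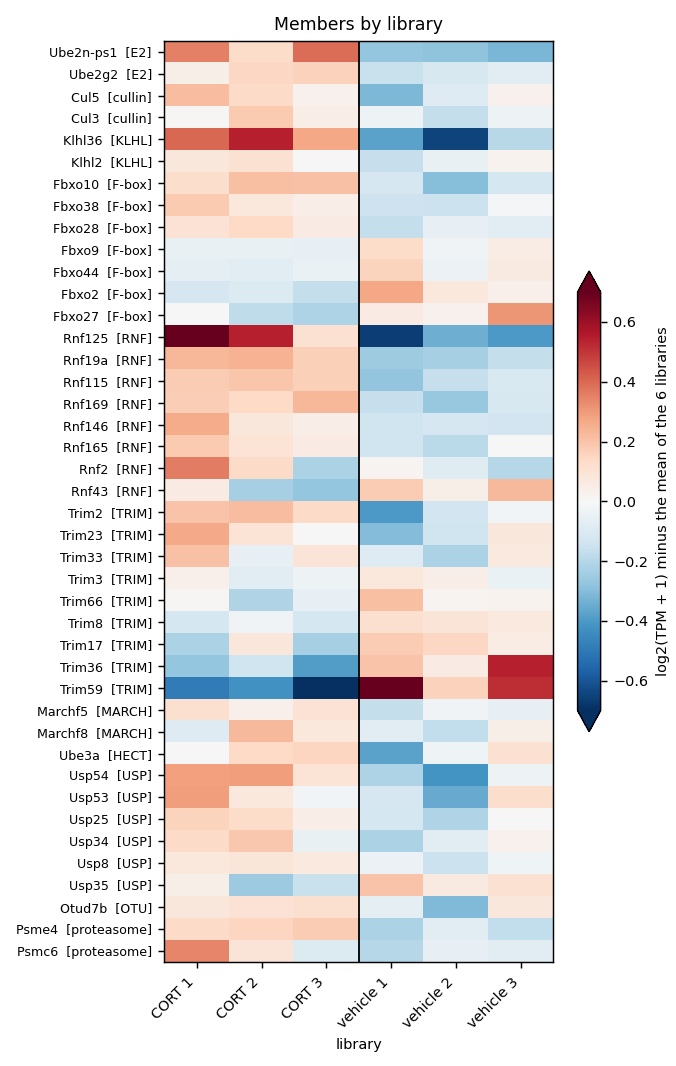
Log2(TPM + 1) of each member minus its mean over the 6 libraries, with the 3 CORT libraries at the left, the 3 vehicle libraries at the right and colours cut at the ends of the scale. CORT library 3 was the lowest of its group for 27 of the 42 members and vehicle library 3 the highest of its group for 24.

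Across all 42 members the exact two-sided permutation test of single genes gave p = 0.1 for the 29 whose groups did not overlap, 20 above and 9 below, and 0.1 is the smallest p that 3 libraries against 3 allow. Across the table, 69.8% of tested genes had groups that did not overlap. Libraries differed within groups as well. CORT library 3 was the lowest CORT library for 27 members and CORT library 1 the highest for 18, while vehicle library 3 was the highest vehicle library for 24 members and vehicle library 2 the lowest for 21.

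Transcript GC content moved with the direction of change in the table, and its part in the members' changes was not tested beyond the correction given here. The members' transcripts had a median GC content of 47.0%, against 51.2% in all tested genes. Among members in the lowest tercile by GC content 19 of 21 had a positive fold change, in the middle tercile 9 of 13, and in the highest tercile 2 of 8. Among the other tested genes the shares were 79.9%, 46.8% and 23.8%. Across the 42 members Pearson's r between GC content and log2 fold change was -0.06 and Spearman's rho was -0.19, and across all 2238 tested genes with a GC value r was -0.29 and rho was -0.36. Genes measured in the same libraries are not independent, so these are descriptions only. Klhl36 and Fbxo10, at 60.5% and 55.9% GC, were higher in CORT, and Trim59 and Trim36, at 37.6% and 43.6% GC, were lower. Called members in the direction of most other genes were 6 higher in the lowest tercile and 2 lower in the highest.

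With a spline of GC content removed from each library, 13 members passed, 10 higher and 3 lower, against 40%, 18.3% and 21.7% of the table, and 24 of 42 had a positive fold change, against 47.4% of the table. The median log2 fold change of the members was then 0.02. Calls lost with this correction were those of Rnf146, Psme4, Trim2, Fbxo2 and Trim8, whose log2 fold changes became smaller in size by over 1.5 times (limma adjusted p of 0.456, 0.272, 0.0566, 0.276 and 0.631). The call of Trim17 was lost at the same log2 fold change of -0.25 (limma adjusted p of 0.0719). Fbxo27 passed only with it and with quantile normalization (log2 fold change -0.35 and -0.32, limma adjusted p of 0.0156 and 0.0247). With quantile normalization 20 members passed, 13 higher and 7 lower, against 50.4%, 22.2% and 28.2% of the table, and Klhl2, Rnf43 and Usp35 were then among them. Both with the correction and in every fit without a single library, 8 members passed, namely Rnf125, Klhl36, Ube2n-ps1, Usp54, Rnf19a, Rnf115, Fbxo10 and Trim59. The share of all tested genes that did so was not counted, so this number cannot be set against the table.

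**Figure D4:**
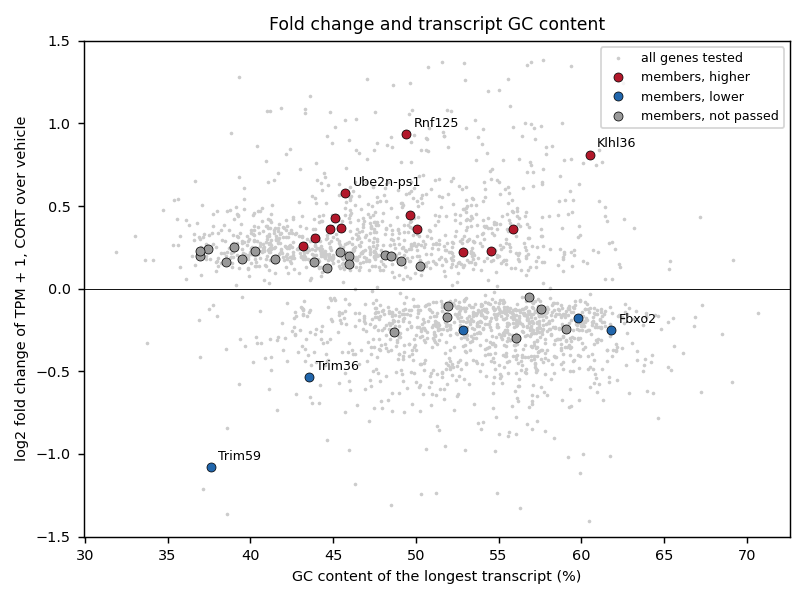
Log2 fold change, CORT over vehicle, against the GC content of the longest transcript in percent, for the members (large points) and all tested genes (small points, with 20 genes beyond 1.5 in either direction not drawn). Most tested genes at low GC content lie above 0 and most at high GC content below it. Klhl36 and Fbxo10 in the highest tercile and Trim59 and Trim36 in the lowest lie on the other side of 0 from most genes there.

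Every listed marker of other cell types had an authors' p under 0.05, as all listed genes did. The part of these markers in the members' changes was not tested. Across all tested genes 25.8% were higher and 24.7% lower. Of 15 microglial markers 9 were listed, 7 lower and 1 higher, and their summed TPM was 134 to 167 in the CORT libraries and 205 to 223 in the vehicle libraries. Of 12 endothelial markers 8 were listed, 6 of them lower, with a summed TPM of 104 to 109 in the CORT libraries and 156 to 172 in the vehicle libraries. Listed astrocyte markers summed to 1492 to 1511 TPM in the CORT libraries and 1635 to 1709 TPM in the vehicle libraries (5 of 10 listed, 2 lower). The 3 listed oligodendrocyte markers of 14 (1 higher, 1 lower) summed to 651 to 911 TPM in the CORT libraries and 516 to 697 TPM in the vehicle libraries. In 2 of these 3 every CORT library was below every vehicle library, and only 1 had a positive fold change, so the sum followed that 1 gene. The 4 listed neocortical markers of 10 (1 lower) summed to 43.4 to 55.8 TPM in the CORT libraries and 56.2 to 71.4 TPM in the vehicle libraries. Of 8 choroid plexus markers only Folr1 was listed, at 3.73, 2.10 and 22.52 TPM in the CORT libraries and 1.95, 1.33 and 3.20 TPM in the vehicle libraries, so that CORT library 3 stood apart. No listed marker of these cell types was at 0. Of 19 markers of hippocampal neurons 7 were listed, 2 higher and 2 lower, summing to 405 to 431 TPM in the CORT libraries and 416 to 452 TPM in the vehicle libraries. Of 15 known targets of the glucocorticoid receptor 14 were listed, and 13 of them were higher in CORT. In whole tissue fewer cells of a type and less RNA per cell cannot be told apart.

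The promoters of 29 of the 42 members were found in the RefSeq table (43 windows, each 250 bases before to 50 bases after a gene start, GRCm38.p6). They were searched on both strands for the palindromic glucocorticoid response element (AGAACA, any 3 bases, then TGTTCT), a single arm of it (AGAACA), TGACNNNGC (the core of the antioxidant response element), GTAAACA (a forkhead site) and CACGTG (an E-box). The full element contains the single arm on both strands. The full element and the forkhead site were in none of the 43 member windows, and in 0.00913% and 3.65% of all 32851 windows. The single arm was in 4 member windows (9.3%) and in 19% of all windows. The antioxidant core was in 9 member windows (20.9%), those of Psme4, Psmc6, Trim59, Trim2, Fbxo27, Cul5, Marchf8, Usp25 and Usp34, and in 12.4% of all windows. The E-box was in 4 member windows (9.3%), those of Fbxo10, Marchf8 and Cul5, and in 7.15% of all windows. Member windows held a median of 21 CG pairs, windows of all listed genes 20 and all windows 7. All windows are thus an unlike set in base content, and motif shares over windows of listed genes were not counted. The shares above therefore cannot show an excess or a lack of a motif in the members.

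Below, 4 of these promoters are given, chosen after the values were seen. Klhl36 rose by a log2 fold change of 0.81. Fbxo10 was a riser with an E-box that passed in every fit without a single library. Psme4 was the called proteasome gene, and Trim59 was the member with the largest fall. These 4 promoters lie at chr8:119862055-119862354 (plus strand), chr4:45084555-45084854 (minus strand), chr11:30771525-30771824 (plus strand) and chr3:69044693-69044992 (minus strand) in GRCm38.p6. Capitals mark a motif match, and Klhl36 had none. Fbxo2, which was lower, had no match either, and its promoter is not shown.
Klhl36: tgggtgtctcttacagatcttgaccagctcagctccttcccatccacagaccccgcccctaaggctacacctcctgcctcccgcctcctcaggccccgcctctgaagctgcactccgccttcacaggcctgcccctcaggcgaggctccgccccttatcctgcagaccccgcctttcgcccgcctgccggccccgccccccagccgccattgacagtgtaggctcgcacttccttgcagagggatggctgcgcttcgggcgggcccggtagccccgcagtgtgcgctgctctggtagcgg
Fbxo10: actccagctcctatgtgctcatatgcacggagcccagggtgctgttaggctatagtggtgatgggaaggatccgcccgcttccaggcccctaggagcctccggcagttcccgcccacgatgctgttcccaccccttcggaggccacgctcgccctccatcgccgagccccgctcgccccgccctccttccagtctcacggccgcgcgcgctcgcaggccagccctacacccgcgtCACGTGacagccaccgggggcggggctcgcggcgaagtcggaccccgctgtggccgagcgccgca
Psme4: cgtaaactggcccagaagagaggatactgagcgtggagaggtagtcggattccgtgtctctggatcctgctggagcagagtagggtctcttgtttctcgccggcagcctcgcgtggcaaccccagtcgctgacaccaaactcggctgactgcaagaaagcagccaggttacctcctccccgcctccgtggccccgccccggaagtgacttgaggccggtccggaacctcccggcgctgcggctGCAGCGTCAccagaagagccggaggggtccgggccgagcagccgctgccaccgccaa
Trim59: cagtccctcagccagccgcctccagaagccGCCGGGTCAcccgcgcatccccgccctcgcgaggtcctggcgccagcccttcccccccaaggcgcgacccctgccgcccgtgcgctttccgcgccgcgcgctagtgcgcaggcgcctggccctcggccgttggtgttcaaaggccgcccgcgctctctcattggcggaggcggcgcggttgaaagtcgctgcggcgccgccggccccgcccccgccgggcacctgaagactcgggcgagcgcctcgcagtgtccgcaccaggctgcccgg
The capitals mark the E-box in Fbxo10, first base at position -15 from the gene start, and the antioxidant core on the reverse strand in Psme4, first base at position -7 from the start, and in Trim59, first base at position -220. A match is a description of the letters and not evidence of binding.

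Genes of the same system that carry other names were taken from lists of E1 enzymes, other ligases, cullin adaptors, COP9 signalosome, anaphase-promoting complex, other deubiquitinases, ubiquitin precursors and ubiquitin receptors. Of 372 such genes 51 were listed and tested, 10 were higher, 6 were lower and 35 did not pass. Their median log2 fold change was 0.15, against 0.20 in the members and 0.05 in all tested genes, and 31.4% passed, against 42.9% of the members and 50.6% of the table. Peli1, a ligase of innate immune receptors, had a TPM of 20.52, 20.57 and 21.29 in the CORT libraries and 14.29, 15.54 and 15.43 in the vehicle libraries, a log2 change of 0.44 (limma, SE 0.08, adjusted p of 0.004). Klhdc7a, a Kelch-domain protein, had a TPM of 6.85, 6.99 and 7.70 in the CORT libraries and 4.69, 4.24 and 5.09 in the vehicle libraries. It changed by 0.53 on the log2 scale (limma adjusted p of 0.007). Midn was counted in the list of RING and UBR ligases, although it delivers proteins to the proteasome without ubiquitin. Midn had a TPM of 21.79, 24.18 and 24.86 in the CORT libraries and 32.30, 28.39 and 31.09 in the vehicle libraries. Its log2 change was -0.36 (limma adjusted p of 0.012). The groups did not overlap in Peli1, Klhdc7a or Midn.

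None of 9 E1 enzymes was listed. Of 16 ligases and deubiquitinases linked to muscle atrophy or to glucocorticoids, Cblb and Mdm2 were listed and neither passed, with log2 fold changes of 0.21 and 0.14. Of 36 autophagy genes, which serve the other main route of protein breakdown, 4 were tested. Over all tested genes 50.6% passed, and of these 4 genes 1 did. This was Gabarapl1, an ubiquitin-like protein of the autophagosome membrane, with a log2 change of -0.17 (limma adjusted p of 0.015).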

How the data were processed

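Hippocampal RNA of 3 CORT and 3 vehicle mice was sequenced from TruSeq libraries as paired-end reads. Per the methods the authors trimmed reads with fastp, aligned them with HISAT2 in orientation mode, assembled them with StringTie and quantified transcripts with RSEM. The submitters' processing notes add the build GRCm39. The sources used here give no tool versions, no annotation and no statement on strand in quantification. The authors' deposited table gives TPM computed by the authors, with the authors' fold change and p from DESeq2, which were not used beyond the check that all 2404 rows have p under 0.05. Libraries are numbered as in the column headers, whose numbers could not be matched to the titles of the samples. Nothing says more of the replicates than that they are biological.

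Testing on log2(TPM + 1) used limma 3.58.1 under R 4.3.3 (eBayes with trend and robust options, threshold 0.05). The count-based test named by the study was not run, since the table holds TPM. The fit was tested on simulated data with known changes. Members and gene lists were chosen with earlier results of these data known. Values by library are given for the 8 largest rises past the threshold without overlap and for all such falls, which were fewer than 8. They are also given for the 2 genes with the smallest p in each family. From each of the other lists the 2 genes with the smallest p could be named. Other genes named or given by library were chosen after their values were seen. GC content was that of the longest GENCODE M21 transcript (GRCm38), found for 99.9% of listed genes and all 42 members, and was removed with a spline of 4 degrees of freedom. Copies were searched with BLAST 2.17.0 (at least 90% identity over at least 20% of the transcript). Tables and plots were made in Python 3.11.15 (pandas 2.3.3, numpy 2.4.6, scipy 1.17.1, matplotlib 3.10.9). Alternatives were pseudocounts of 0.1 and 0.5, no filter and a TPM of 5, quantile normalization, plain eBayes, the GC correction, a threshold of 0.01 and leaving out each library in turn. Some results are not reported here.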

Additional observations from a re-analysis of the deposited data

How the results depend on the processing

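The groups were compared without pairing, since the study's methods divided the mice at random and name no pairs. The table's columns are not tied to the replicate numbers of the sample titles. The number of members changed was 18 and lay between 12 and 20 when single libraries were left out. At an adjusted p under 0.01 it was 7, with 6 higher and 1 lower. The number higher was 13, where 25.8% of the table was higher, and lay between 10 and 18 without single libraries. The share of the table that was higher in those fits was not counted. Nor was the table's split by direction at 0.01. The number lower was 5 and lay between 1 and 4 without single libraries, and it was 2 with a TPM of at least 5, 3 with plain eBayes and 3 with the GC correction. The number changed in the whole table was 1133, between 620 and 1187 without single libraries and 328 at the threshold of 0.01. For the whole table it was 949 with a TPM of at least 5, 1027 with plain eBayes and 895 with the GC correction.

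Only the GC correction turned a member's direction among the alternatives run, in 8 members that had not passed. The corrected log2 fold changes were -0.0704 for Cul3, -0.0428 for Klhl2, -0.0107 for Psmc6, -0.0434 for Rnf2, 0.0328 for Trim3, -0.018 for Trim33, -0.0411 for Ube3a and -0.0283 for Usp34. The spline was fitted to genes that the authors had called, and the cause of the calls lost with it was not tested. With quantile normalization Trim17 and Rnf165 lost their calls at log2 fold changes of -0.26 and 0.17, against -0.25 and 0.22 before (adjusted p = 0.0507 and 0.0533 from limma), and the median log2 fold change of all tested genes was 0.02, against 0.05 before. TPM keeps no depth, so the counting error of low members such as Rnf125, Rnf43 and Trim36 is unknown.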
